A study of Mus musculus with 12 samples.

Results

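Chromatin accessibility was described at 7 tetraspanin genes, Cd9, Cd81, Cd82, Cd37, Cd53, Cd63 and Cd151, in splenic B cells. A region was taken as a member where the protein-coding gene that it overlapped, or that lay nearest to it on mm10, was among these genes. The rule found 56 of the 94161 regions in the table, namely 19 for Cd9, 14 for Cd82, 10 for Cd81, 7 for Cd53 and 2 each for Cd37, Cd63 and Cd151. Of these, 30 overlapped the body of their gene and 26 lay outside it, at most 37465 bp away. The nearest gene is a label of position, and a region outside a gene was not shown to act on it.

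The libraries were made by ATAC-seq, in which the transposase Tn5 cuts accessible DNA and tags it for sequencing, from unstimulated spleen cells of female C57BL/6J mice. Marginal zone B cells (MZB) were gated as B220+ cells lacking CD23 with high CD21 and with CD1d, and follicular B cells (FoB) as B220+ cells with CD23 and intermediate CD21 but no CD1d. Each cell type was sorted from wild-type and from LSD1-knockout mice, as the genotype label has it, which gave 4 groups of 3 libraries of 10000 cells each. LSD1 is a histone demethylase, encoded by Kdm1a; the allele, the Cre driver and the cells in which deletion took place are not named in the labels. Nor do the labels state that each library stems from its own animal, so p-values reflect only how these libraries vary.

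Tetraspanins are small proteins that cross the membrane several times and gather integrins, receptors and proteases into patches on the cell surface. CD81 associates with the complement receptor CD21 on B cells, and CD9 is a known surface marker of marginal zone B cells, B-1 cells and plasma cells. CD37 and CD53 are found mainly on leukocytes, CD82 restrains adhesion and signalling at the membrane, CD151 binds laminin-binding integrins, and CD63 resides largely in late endosomes, lysosomes and the vesicles they release.

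Levels are reads per region scaled to a total of 1000000 per library over the listed regions (rppm), given as mean ± SD over 3 libraries. Differences between groups are those of log2(rppm + 0.5), each ± its standard error, a scale that understates differences of low regions. A region was called where limma's adjusted p, by the Benjamini-Hochberg method over 89782 tested regions, was under 0.05. Library totals over the regions ran from 3169966 to 10375328 reads, so that 3 reads corresponded to 0.2891 to 0.9464 rppm. All 56 regions passed the filter of 1 rppm in 3 libraries; 7 Cd9 regions and 1 Cd81 region would not have passed on the FoB libraries alone. The gated cells were checked against marker lists. Over all tested regions, 24.2% were higher and 11.4% lower in wild-type MZB than in wild-type FoB. Of 101 tested regions of marginal zone genes, 52 were higher and 7 lower in this comparison, and 18 of the 52 belong to Cd9 itself. Of 39 regions of follicular genes, 1 was higher and 13 were lower, 4 of them at Fcer2a, which encodes CD23. The gene of the gated CD21, Cr2, had 0 regions higher and 5 lower of 20. The deleted gene had 1 tested region, where neither cell type showed a call between genotypes (adjusted p = 0.773 in MZB and 0.866 in FoB by limma), which does not check the deletion.

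The 250 bases before the start of Cd9, Cd81 and Cd53 are shown because limma's calls between the wild-type cell types differed at the regions over them. The region was higher in MZB at Cd9, lower in MZB at Cd53 and not called at Cd81. The Cd81 region also pointed lower in MZB, and was called so under another scaling given below. The printed bases are RefSeq sequences on GRCm38.p6, written 5′ to 3′ on the strand of the gene, from chr6:125494761-125495010 (minus strand) for Cd9, chr7:143052500-143052749 (plus strand) for Cd81 and chr3:106790150-106790399 (minus strand) for Cd53. Capitals mark matches, on either strand, to GGGCGG (the GC box), CCAAT (the box of that name, bound by NF-Y), TATAAA (the TATA box of some core promoters), CAGCTG (bound by E proteins), GGAAGT (Ets factors), TGGGAA (RBPJ, the DNA-binding partner of Notch) and TGANTCA (AP-1).
Cd9: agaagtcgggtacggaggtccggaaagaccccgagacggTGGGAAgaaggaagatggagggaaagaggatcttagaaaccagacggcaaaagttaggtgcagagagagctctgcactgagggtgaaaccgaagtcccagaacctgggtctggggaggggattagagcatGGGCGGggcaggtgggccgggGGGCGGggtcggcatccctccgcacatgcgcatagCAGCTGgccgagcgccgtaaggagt
Cd81: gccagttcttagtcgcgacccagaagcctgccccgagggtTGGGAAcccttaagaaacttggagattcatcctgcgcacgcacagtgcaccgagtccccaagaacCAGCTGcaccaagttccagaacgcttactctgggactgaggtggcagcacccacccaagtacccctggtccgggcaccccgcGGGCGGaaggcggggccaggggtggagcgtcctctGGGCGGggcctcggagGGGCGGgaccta
Cd53: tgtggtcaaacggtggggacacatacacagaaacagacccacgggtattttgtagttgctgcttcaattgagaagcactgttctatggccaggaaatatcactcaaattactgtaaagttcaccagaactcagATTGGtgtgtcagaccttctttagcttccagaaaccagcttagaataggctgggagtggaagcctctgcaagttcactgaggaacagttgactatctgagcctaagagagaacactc
The Cd9 window held 2 GC boxes, 1 CAGCTG and 1 TGGGAA. The Cd81 window held the same kinds of match, with 3 GC boxes, 1 CAGCTG and 1 TGGGAA. The Cd53 window held 1 CCAAT match, read on the other strand, and 0 of the other motifs. No pair of matches overlapped in these windows. Among all 32817 promoter windows of the same length, 32.7% held a GC box, 33.8% a CCAAT, 12.4% a TATAAA, 13% a CAGCTG, 19.7% a GGAAGT, 21.6% a TGGGAA and 6.75% a TGANTCA. The GC content was 61.6% before Cd9, 65.6% before Cd81 and 45.2% before Cd53, beside a median of 52.4% over all windows. These matches describe letters in the windows and were not tested as binding sites.

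Accessibility around Cd9 was higher in MZB than in FoB upstream of the gene, at its promoter, in its body and downstream of it. Summed over the 19 regions, the level in wild type was 288.0, 271.2 and 266.5 rppm in the MZB libraries and 96.1, 101.1 and 85.0 rppm in the FoB libraries. The means were 275.2 ± 11.3 and 94.1 ± 8.24 rppm, a ratio of 2.93, and the libraries of the 2 cell types did not overlap (exact permutation test, two-sided, p = 0.1, the smallest that 3 against 3 libraries allow). Of the 19 regions 7 passed the filter only through MZB libraries, which favours MZB in these sums, and the test does not allow for it. In the knockout the ratio was 2.51, with 275.5 ± 3.73 rppm in MZB and 109.7 ± 6.85 rppm in FoB (exact p = 0.1). The wild-type ratios of the other members were less extreme, from 0.677 at Cd53 to 1.29 at Cd63, as the plot by library shows. Non-overlapping sums in wild type were not particular to Cd9. They also occurred at Cd82 and Cd63, with MZB higher, and at Cd37, Cd53 and Cd151, with MZB lower (each exact p = 0.1). Only the Cd81 sums overlapped (ratio 1.07, exact p = 0.2).

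**Figure D1:**
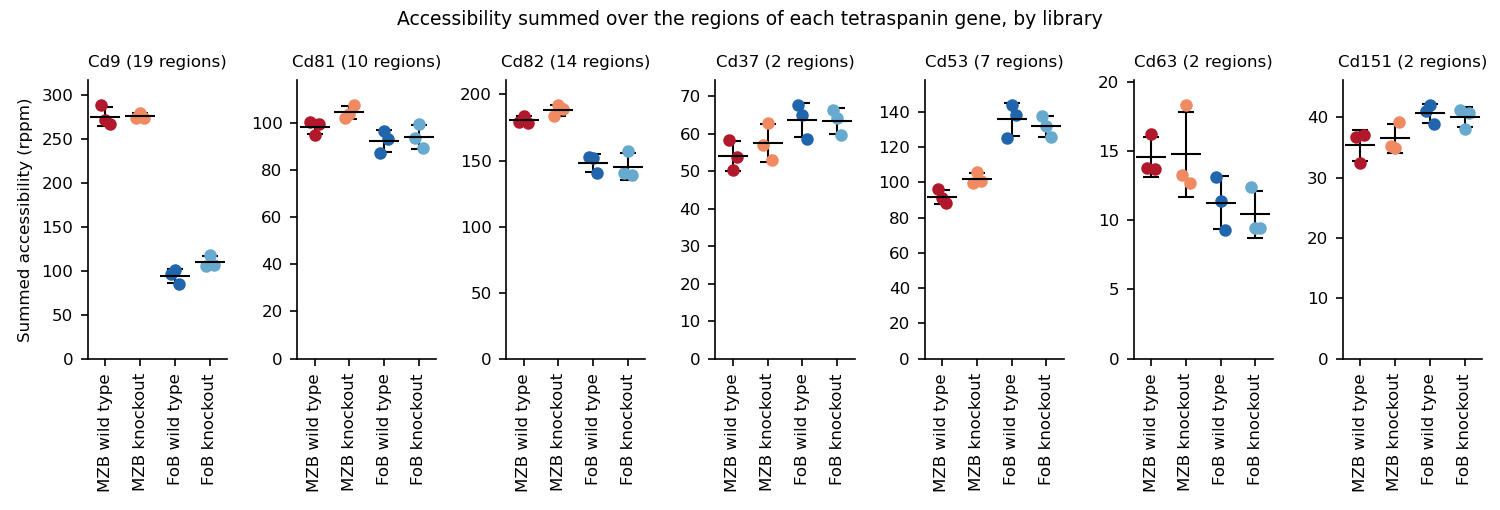
Accessibility summed over the regions of each gene (rppm, vertical axis from 0, scaled per gene) in the 4 groups; points are libraries, and bars are the mean and SD of 3 libraries. The Cd9 sums of the MZB libraries lie between 266.5 and 288.0 rppm, above all FoB libraries, and the Cd53 sums of the wild-type MZB libraries lie below those of the wild-type FoB libraries.

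In wild type, 27 of the 56 regions were higher and 4 lower in MZB than in FoB, where 24.2% and 11.4% of all tested regions were called in these directions (35.7% in either). Of the 19 Cd9 regions 18 were higher (94.7%) and 0 lower, with a median difference of 1.96 against 0.18 over all tested regions. Of these 18, 7 passed the filter only through MZB libraries, which favours a difference at them. Of the 12 Cd9 regions that passed in each cell type, 11 were higher (91.7%) and 0 lower, with a median of 1.5, beside 21.3% higher, 13.2% lower and a median of 0.11 over the 75604 tested regions that did the same. Over all 7 genes 48 regions passed in each, with 19 higher and 4 lower. The 37 regions of the other 6 genes held 9 that were higher (24.3%) and 4 that were lower (10.8%), close to the shares over all tested regions, with a median of 0.10. The libraries of the 2 cell types did not overlap, with MZB higher, at 28 member regions and, with MZB lower, at 4, beside 30.9% and 15.8% of all tested regions. Under other scalings the calls over all regions were more even: 67.9% of them were higher in MZB as deposited, 49.5% after quantile normalisation, 51.6% with edgeR's TMM and 52.4% with DESeq2. The same scalings moved the median of all regions from 0.18 to -0.08, 0.05 and 0.05, and left 16, 17 and 17 Cd9 regions higher and 0 lower. The count for all 7 genes was then 20, 25 and 23 higher.

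**Figure D2:**
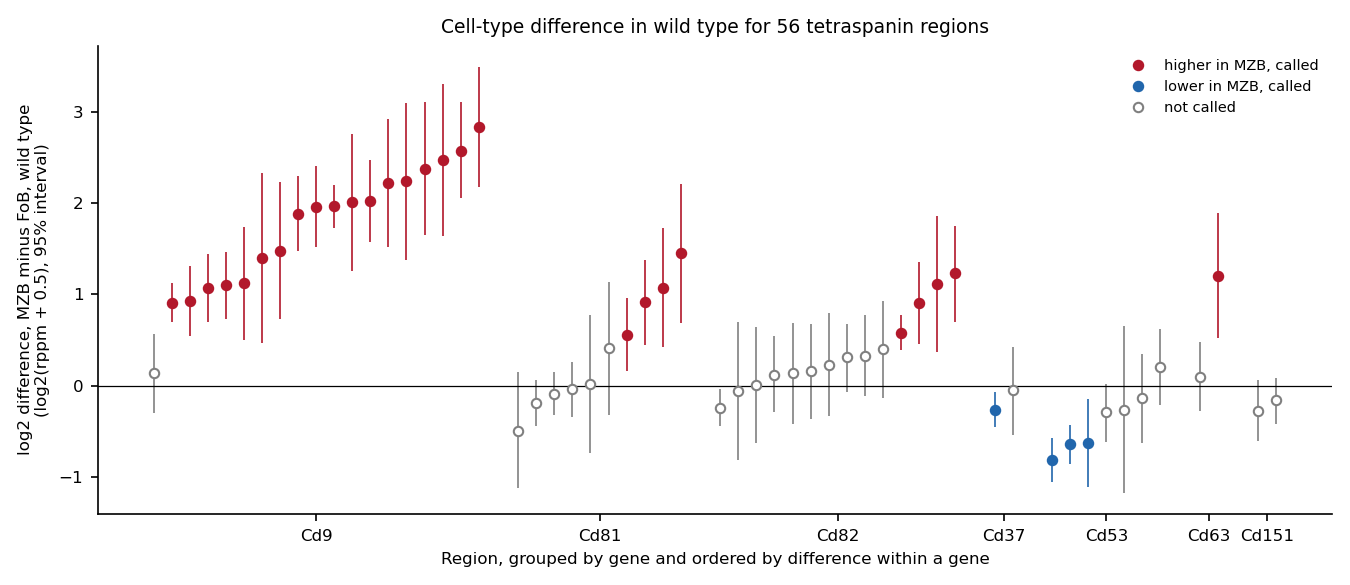
Difference in log2(rppm + 0.5) between wild-type MZB and wild-type FoB for each of the 56 regions, grouped by gene, with 95% intervals; filled points were called (red higher, blue lower in MZB) and open points were not. All but 1 of the 19 Cd9 points are filled above 0, whereas the called points of Cd37 and Cd53 lie below it.

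The most accessible Cd9 region, chr6:125460666-125461822, lay inside the gene near its far end, 33.5 kb from the start. Its level was 85.6, 75.5 and 72.5 rppm in wild-type MZB, 70.2, 79.5 and 73.6 in knockout MZB, 22.7, 19.8 and 16.5 in FoB of wild type and 20.5, 24.7 and 19.3 in FoB of the knockout. MZB libraries were high and FoB libraries low in both genotypes, with no overlap between cell types. The wild-type difference was 1.97 ± 0.12 (adjusted p = 1.42e-15), or 3.91-fold, from 77.8 ± 6.85 to 19.7 ± 3.13 rppm. The second most accessible region, chr6:125467139-125467819, also in the gene body, showed a smaller difference of 0.91 ± 0.11 (adjusted p = 1.51e-08). Its wild-type means were 55.2 ± 3.19 rppm in MZB and 29.1 ± 1.78 in FoB, so this region was open to a substantial level in FoB too.

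Upstream of Cd9, the region chr6:125506392-125506860, 11632 bp from the gene, was open in MZB and low in FoB. It measured 12.7, 10.4 and 13.1 rppm in wild-type MZB, 11, 8.83 and 11.8 in knockout MZB, 1.92, 1.25 and 1.67 in FoB of wild type and 1.45, 1.03 and 2.29 in FoB of the knockout. The difference in wild type was 2.57 ± 0.26 (adjusted p = 5.71e-10). In the gene body, 11 kb from the start, chr6:125483606-125483835 is among the 7 regions that passed the filter only through MZB, so its wild-type difference, 2.83 ± 0.32, is given as a description. Its libraries stood at 7.02, 6.65 and 5.6 rppm in wild-type MZB and 0.548, 0.386 and 0.478 in wild-type FoB, where only 8 reads were counted over the 3 libraries. Knockout MZB lay at 5.6, 4.1 and 4.14 rppm, and knockout FoB at 1.03, 1.03 and 0.508. Here too the cell types did not overlap in either genotype.

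Downstream of the gene, 7 of 7 regions were higher in MZB, and so were 5 of the 5 that passed the filter in each cell type, with a median difference of 1.96. The regions chr6:125433639-125434114 (2.02 ± 0.22, adjusted p = 4.39e-09), chr6:125425308-125425693 (1.96 ± 0.22, adjusted p = 5.16e-09) and chr6:125422308-125422801 (1.88 ± 0.20, adjusted p = 3.05e-09) lay 26152 to 37465 bp past the gene. Their summed level over all 7 was 65.1 ± 3.18 rppm in wild-type MZB and 17.5 ± 1.34 in wild-type FoB. In the gene body outside the promoter region, 7 of 8 regions were higher, or 4 of the 5 that passed in each cell type, with a median of 1.07 over those 5. Upstream 3 of 3 were higher, but only the region named above passed in each cell type. The region without a call, chr6:125480846-125481365, measured 7.77 ± 1.72 and 6.96 ± 1.0 rppm in wild-type MZB and FoB (0.14 ± 0.22, adjusted p = 0.67), and its interval of -0.30 to 0.57 leaves room for a small difference.

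The smallest Cd9 regions were close to the counting limit in FoB, and both of those given here passed the filter only through MZB. At chr6:125444136-125444263 the wild-type libraries held 26 reads in MZB and 1 in FoB, a ratio per total of 44.3 with a 95% interval of 7.28 to 1820. At chr6:125486222-125486354 they held 24 and 3 reads, a ratio of 13.6 (4.14 to 70.8). These intervals cover counting error only, since the reads carry no molecular identifiers.

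**Figure D3:**
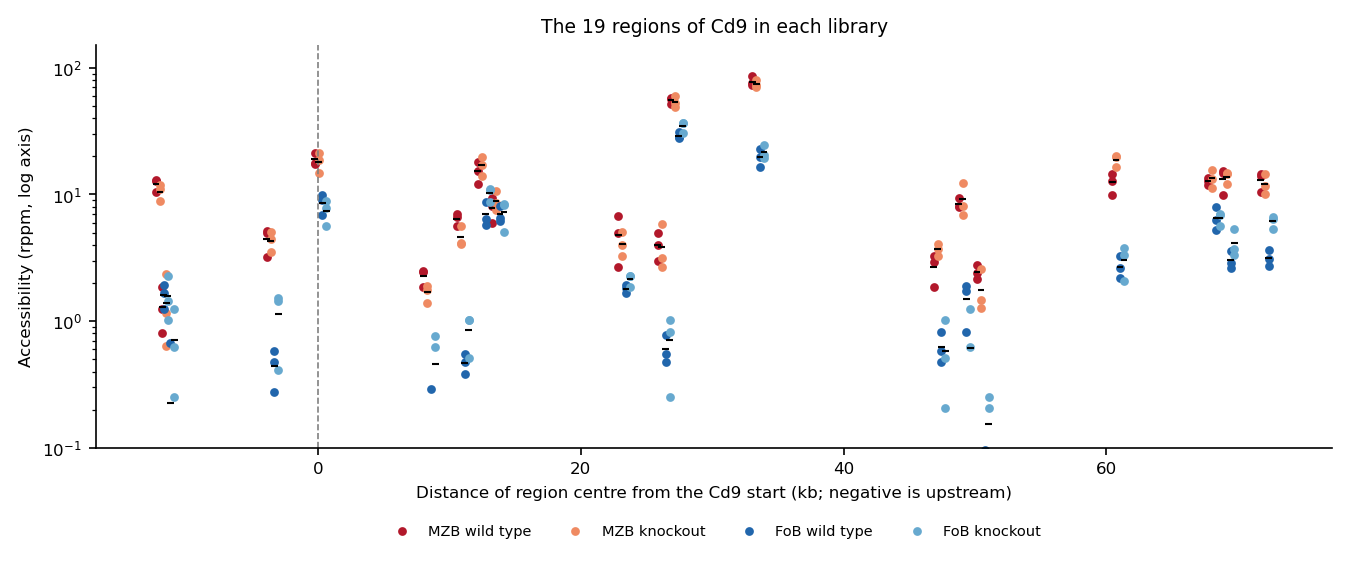
Accessibility (rppm, log axis) of the 19 Cd9 regions against the distance of their centre from the start of the gene (kb, negative is upstream); points are libraries, offset sideways by group, and ticks are group means, with values under 0.1 rppm not drawn. MZB points stand above FoB points at regions on both sides of the start, and the tallest group, near 33.5 kb, reaches 85.6 rppm.

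The promoter region of Cd9, chr6:125494123-125495038, followed the same direction with a smaller difference than the regions named upstream and downstream. It covers the printed Cd9 window whole. It measured 21.3, 17.5 and 17.7 rppm in wild-type MZB, 21.2, 14.8 and 18.6 in knockout MZB, 9.86, 9.06 and 6.92 in FoB of wild type and 5.59, 7.83 and 8.9 in FoB of the knockout. The difference was 1.1 ± 0.18 (adjusted p = 8.28e-06) in wild type and 1.25 ± 0.18 (adjusted p = 1.06e-06) in the knockout, and MZB and FoB libraries did not overlap. Per kb of region, the Cd9 promoter stood at 20.6 ± 2.33 rppm in wild-type MZB and 9.41 ± 1.66 in wild-type FoB.

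Per kb, the Cd53 promoter region was the most accessible of the 7 promoter regions in both wild-type cell types, at 58.2 ± 3.89 rppm in MZB and 91.7 ± 11.4 in FoB. Cd37 (44.2 ± 2.90 and 53.0 ± 3.0) and Cd82 (41.4 ± 1.80 and 49.1 ± 5.48) followed and lay within each other's spread. The Cd151 regions (29.7 ± 4.19 and 30.4 ± 5.21 in MZB, 33.1 ± 2.60 and 36.7 ± 3.23 in FoB) also lay within each other's spread. Cd81 stood at 23.7 ± 2.68 and 27.0 ± 1.71, which in MZB overlapped the Cd9 value and in FoB was above it. No region analysed here overlapped the promoter window of Cd63.

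**Figure D4:**
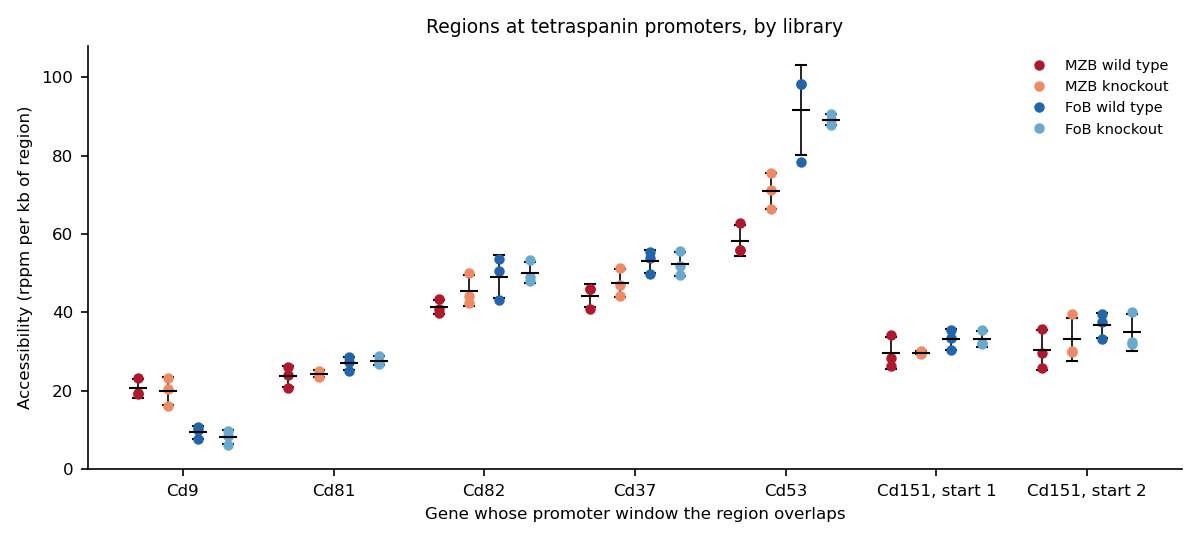
Accessibility per kb (rppm per kb, axis from 0) of the 7 regions that overlap a promoter window of the 6 genes shown, with points for libraries and bars for mean and SD of 3 libraries. The Cd9 region is higher in MZB, near 20.6 rppm per kb in wild type, and the Cd53 region is higher in FoB, near 91.7.

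Cd53, a leukocyte tetraspanin, was less accessible in MZB at 3 of its 7 regions and more accessible at 0, beside 11.4% and 24.2% of all tested regions. Its region 1.71 kb inside the gene, chr3:106788014-106788864, measured 21.9, 23.1 and 23.9 rppm in wild-type MZB, 23.1, 27.8 and 23.1 in knockout MZB, 34.2, 44.5 and 43.9 in FoB of wild type and 39.1, 42.0 and 38.1 in FoB of the knockout. All MZB libraries were below all FoB libraries, and the wild-type difference was -0.81 ± 0.12 (adjusted p = 1.27e-06). Its promoter region, chr3:106789853-106790460, over the printed window, measured 38.1, 34.0 and 33.9 rppm in wild-type MZB and 47.6, 59.7 and 59.7 in wild-type FoB, with -0.64 ± 0.10 (adjusted p = 5.11e-06). Knockout MZB stood between these groups at 40.3, 43.2 and 45.8 rppm, and knockout FoB at 55.0, 53.3 and 54.1, with a knockout cell-type difference of -0.33 ± 0.10 (adjusted p = 0.0125). The third, chr3:106771868-106772228, was at -0.63 ± 0.24 (adjusted p = 0.037). With the alternative scalings 3 or 4 Cd53 regions were lower and 0 higher, so the direction of these calls did not turn. The third region lost its call, leaving 2, without FoB wild-type replicate 1, 2 or 3 and without MZB wild-type replicate 2.

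Cd37, another leukocyte tetraspanin, was slightly lower in MZB at its promoter region, chr7:45238638-45239724. The libraries stood at 49.9, 44.4 and 49.8 rppm in wild-type MZB and 60.2, 58.6 and 54.0 in wild-type FoB, with no overlap and a difference of -0.26 ± 0.10 (adjusted p = 0.0309). Knockout MZB measured 51.1, 55.8 and 47.9 rppm and knockout FoB 60.4, 56.4 and 53.9, which overlapped. The wild-type call was lost after quantile normalisation (-0.04, adjusted p = 0.766) and without FoB wild-type replicate 1 (adjusted p = 0.104), FoB wild-type replicate 2 (0.0895) or MZB wild-type replicate 2 (0.144), so it rests on each of these libraries. The other Cd37 region, inside the gene, differed by -0.05 ± 0.24 (adjusted p = 0.889).

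Cd81 was not called at its promoter or at its most accessible region, and 4 of its 10 regions, all upstream of the start, were higher in MZB, beside 24.2% of all tested regions. These counts depended on the scaling: 2 were higher and 0 lower with DESeq2, 3 higher and 2 lower with edgeR and TMM, and 1 higher and 1 lower after quantile normalisation. One of the 4 passed the filter only through MZB, and 3 of the other 9 were higher. The promoter region, chr7:143052386-143053269, measured 21.3, 18.3 and 23.0 rppm in wild-type MZB and 25.2, 24.1 and 22.2 in wild-type FoB, which overlapped (-0.19 ± 0.13, adjusted p = 0.251; interval -0.44 to 0.06). The most accessible region, chr7:143038176-143039000, 13750 bp before the gene, stood at 30.3 ± 1.59 and 32.4 ± 3.89 rppm (-0.09 ± 0.12, adjusted p = 0.592). With edgeR and TMM the promoter passed the threshold, lower in MZB (-0.37, adjusted p = 0.0157), as did the most accessible region (-0.29, adjusted p = 0.0372). The upstream region with the smallest p, chr7:143037272-143037640, measured 7.83, 9.04 and 5.91 rppm in wild-type MZB and 4.65, 3.57 and 3.1 in wild-type FoB, a difference of 0.92 ± 0.23 (adjusted p = 0.00175). After quantile normalisation that difference was 0.55 (adjusted p = 0.068).

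Cd82 was higher in MZB at 4 of its 14 regions (28.6%) and lower at 0, near the 24.2% of all tested regions that were higher. The broad region chr2:93427013-93428642 in the gene body was the most accessible of all 56, at 64.0, 70.2 and 63.4 rppm in wild-type MZB, 63.9, 76.0 and 73.9 in knockout MZB, 44.9, 42.6 and 44.4 in FoB of wild type and 43.7, 43.9 and 40.4 in FoB of the knockout. The cell types did not overlap, and the wild-type difference was 0.58 ± 0.09 (adjusted p = 7.41e-06). The other called regions differed by 0.91 ± 0.22, 1.11 ± 0.37 and 1.23 ± 0.26. The promoter region, chr2:93461764-93462819, which overlaps the windows of 2 listed starts, pointed the other way without a call, at 43.6 ± 1.90 and 51.8 ± 5.78 rppm (-0.24 ± 0.10, adjusted p = 0.0617). It passed the threshold with edgeR (adjusted p = 0.000449), with DESeq2 (0.00448) and without FoB wild-type replicate 3 (0.0214), lower in MZB each time.

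Cd63 and Cd151 had 2 regions each. At Cd63, the region chr10:128902426-128902799 inside the gene measured 4.32, 4.79 and 3.42 rppm in wild-type MZB, 3.5, 3.47 and 2.66 in knockout MZB, 1.64, 1.25 and 1.67 in FoB of wild type and 0.621, 0.206 and 0.254 in FoB of the knockout. MZB was above FoB in each genotype, with 1.2 ± 0.34 in wild type (adjusted p = 0.00497), and with 0.75 and an adjusted p of 0.0869 after quantile normalisation. The more accessible Cd63 region, chr10:128895383-128895830, differed by 0.10 ± 0.19 (adjusted p = 0.722), a value whose sign turned under 4 other settings. The Cd151 regions overlap the windows of its 2 listed starts. The first, chr7:141467195-141467965, stood at 22.8 ± 3.23 rppm in wild-type MZB and 25.5 ± 2.0 in wild-type FoB (-0.16 ± 0.13, adjusted p = 0.336), and the second, chr7:141468525-141468938, at 12.5 ± 2.15 and 15.2 ± 1.34 (-0.27 ± 0.16, adjusted p = 0.197). With edgeR and TMM both passed the threshold, lower in MZB (-0.34, adjusted p = 0.0247, and -0.47, adjusted p = 0.0182).

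In the knockout, 27 of the 56 regions were higher and 3 lower in MZB than in FoB, where 23.2% and 9.47% of all tested regions were called in these directions (32.7% in either). The higher regions were 17 of Cd9, 5 of Cd82, 4 of Cd81 and 1 of Cd63, and the lower were 3 of Cd53. The median difference of the Cd9 regions was 1.64, beside 0.14 over all tested regions. Of the 12 Cd9 regions that passed the filter in each cell type 11 were higher, with a median of 1.12, beside 20.8% and a median of 0.08 over all such regions. Of all calls 71.0% were higher in MZB as deposited, 53.0% after quantile normalisation, 52.9% with edgeR and 55.1% with DESeq2, and 15, 15 and 14 Cd9 regions were then higher. This comparison shares no library with the wild-type comparison, but the filter and limma's estimate of the spread were taken over all 12 libraries in both. At the Cd9 region of the gene's far end the difference was 1.77 ± 0.12 (adjusted p = 2.24e-14), and at the region 11632 bp upstream it was 2.44 ± 0.26 (adjusted p = 2.34e-09).

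Between genotypes, few differences at these genes exceeded the spread between libraries. In MZB, limma called 0 of the 56 regions in either direction, where 0.777% of all tested regions were called (0.502% higher and 0.275% lower in the knockout), and edgeR and DESeq2 also called 0 (DESeq2 gave no adjusted p for 4). An unadjusted p under 0.05 was reached by 2 of the 56, and the smallest adjusted p was 0.198. These 2 were the Cd53 promoter region, with 0.28 ± 0.10 (adjusted p = 0.198), and the Cd9 region 26152 bp downstream, with 0.59 ± 0.22 (adjusted p = 0.222). At the latter, knockout MZB libraries measured 16.6, 20.2 and 19.8 rppm against 9.99, 12.8 and 14.6 in wild type, so that the libraries did not overlap. Non-overlapping libraries occurred at 3 member regions with the knockout higher and 2 with it lower, beside 8.13% and 9.55% of all tested regions. At the most accessible Cd9 region the genotype difference in MZB was -0.06 ± 0.12, with an interval of -0.30 to 0.17.

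In FoB, 1 of the 56 regions was called, higher in the knockout, where 0.539% of all tested regions were called in either direction, 0.32% higher and 0.219% lower. It was the most distant Cd9 region, chr6:125422308-125422801, 37465 bp past the gene. Wild-type FoB libraries stood at 2.74, 3.66 and 3.1 rppm and knockout FoB libraries at 6.41, 5.36 and 6.61, without overlap, a difference of 0.86 ± 0.20 (adjusted p = 0.0356). MZB libraries stood at 10.5, 14.6 and 14 rppm in wild type and 14.5, 11.7 and 10.0 in the knockout (-0.11 ± 0.20, adjusted p = 0.866). Knockout FoB therefore lay between wild-type FoB and MZB at this region, and the cell-type difference in the knockout was 0.91 ± 0.20 (adjusted p = 0.000588), beside 1.88 ± 0.20 in wild type. The genotype difference itself was not shown to differ between the cell types (interaction -0.97 ± 0.29, adjusted p = 0.672).

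The call at this Cd9 region rested on single libraries and settings. Its adjusted p became 0.14 without FoB knockout replicate 1, 0.0521 without FoB knockout replicate 2, 0.136 without FoB knockout replicate 3, 0.147 without FoB wild-type replicate 1 and 0.113 without FoB wild-type replicate 3. It was also above the threshold with edgeR (0.0939) and DESeq2 (0.43). Libraries did not overlap at 1 member region with the knockout higher and at 1 with it lower, beside 7.18% and 7.51% of all tested regions. In FoB 6 of the 56 regions reached an unadjusted p under 0.05. Among them was the Cd63 region inside the gene, where knockout FoB held 5 reads against 26 in wild type, with no overlap (-1.26 ± 0.34, adjusted p = 0.0852). The library totals differed, and the ratio per total was 0.257, with a 95% interval of 0.0771 to 0.681 for counting error only. With a pseudocount of 0.1 this Cd63 region was called lower in the knockout. The summed Cd9 level was 1.17 times higher in knockout than in wild-type FoB, at 105.5, 117.6 and 106.0 rppm against 96.1, 101.1 and 85.0, which did not overlap (exact p = 0.1). In MZB the ratio of the Cd9 sums was 1.0. Of the 14 comparisons of a gene's sum between genotypes, 2 others gave libraries that did not overlap, both in MZB with the knockout higher. Cd53 stood at 99.4, 105.7 and 100.8 rppm against 96.1, 91.2 and 88.3 in wild type (ratio 1.11, exact p = 0.1), and Cd81 at 102.4, 103.8 and 107.6 against 100.4, 95.2 and 99.8 (ratio 1.06, exact p = 0.1). No comparison of 3 against 3 libraries can fall below that p.

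The sum over regions of 4 B-1 genes, measured beside this, also stood higher in the knockout, but not at each gene. This sum was 325.3 to 332.9 rppm in knockout FoB and 290.2 to 292.7 in wild-type FoB. Of 36 regions 2 were called higher, beside 0.32% of all tested regions, 1 of Spn (0.81 ± 0.19, adjusted p = 0.0299) and 1 of Bhlhe41 (0.47 ± 0.12, adjusted p = 0.0484). The means in wild-type and knockout FoB were 29.7 ± 5.62 and 38.5 ± 2.05 rppm for Spn and 175 ± 0.815 and 211 ± 5.83 for Bhlhe41. For Cd5 they were 39.9 ± 4.05 and 39.5 ± 0.786 rppm, and for Zbtb32 46.2 ± 2.83 and 40.2 ± 3.44. In MZB, where the Cd9 sums overlapped, the B-1 sum was 355.0 to 395.9 rppm in the knockout and 316.3 to 340.3 in wild type, with 1 region of Spn called higher. Dendritic cell genes stood at 421.2 to 441.2 rppm in knockout FoB and 394.8 to 406.7 in wild-type FoB, with 0 regions called. In MZB the sums of other lists also lay higher in the knockout without overlap. Dendritic cell genes stood at 426.6 to 450.8 rppm against 415.6 to 424.2 in wild type, with 1 region called. Myeloid genes stood at 258.0 to 281.1 against 232.6 to 243.2, also with 1 called. NK cell genes stood at 320.5 to 356.1 against 297.7 to 306.3, and plasma cell genes at 715.5 to 746.6 against 678.9 to 713.3. The sums of the remaining lists overlapped. The part of such cells in the Cd9 difference between genotypes was not tested.

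For the difference between the 2 genotype effects, limma called 0 member regions (0.00111% of all tested regions), as did edgeR and DESeq2, 4 had an unadjusted p under 0.05, and the smallest adjusted p was 0.672.

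**Figure D5:**
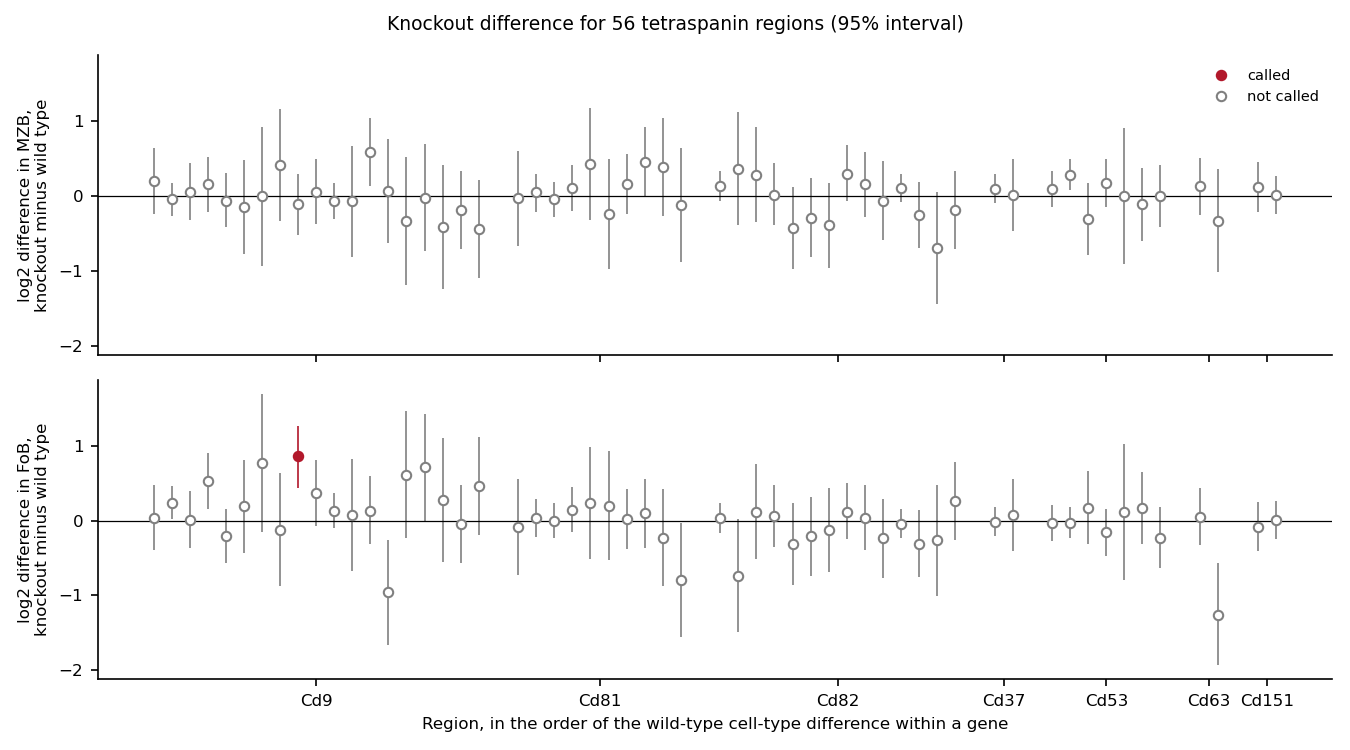
Knockout minus wild type in log2(rppm + 0.5) for the 56 regions, in MZB (top) and FoB (bottom), with 95% intervals and regions ordered as in the plot of the wild-type cell-type difference. The red point at 0.86 in FoB, a Cd9 region, was called and the other points were not.

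Other genes of the tetraspanin network were read from lists. Which regions of these lists passed the filter only through MZB libraries is not given here. Such regions favour MZB in the counts. Of 24 other tetraspanin genes, 19 had regions, and of their 97 tested regions 29 (29.9%) were higher and 9 (9.28%) lower in wild-type MZB, with a median of 0.11, beside 24.2%, 11.4% and 0.18 over all tested regions. Among them Tspan15, a tetraspanin that escorts the protease ADAM10, was higher at 9 of 9 tested regions. At chr10:62194904-62195490, inside Tspan15, the libraries measured 27.5, 25.0 and 23.0 rppm in wild-type MZB and 0.821, 2.7 and 0.955 in wild-type FoB (3.81 ± 0.25, adjusted p = 1.18e-14). A second region there, chr10:62231010-62231607, stood at 26.7 ± 2.53 and 4.31 ± 0.456 rppm (2.50 ± 0.20, adjusted p = 2.1e-12). Tspan17, which also binds ADAM10, was higher at 5 of 6 regions. For ADAM10 and its tetraspanin partners together, 24 of 54 regions (44.4%) were higher and 4 (7.41%) lower, with a median of 0.55, and 9 of the 24 were those of Tspan15. Adam10 itself had 5 of 10 higher and 1 lower.

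Among 19 partner genes, 44 of 188 tested regions (23.4%) were higher and 30 (16%) lower in wild-type MZB, with a median of 0.07, so that the share higher was close to the 24.2% of all tested regions. Itgb1, the integrin β1 subunit that joins CD151, CD9 and CD81 complexes, was higher at 17 of 20 regions. At chr8:128654562-128655162, 30492 bp from Itgb1, the level was 16.3 ± 0.439 rppm in wild-type MZB and 2.77 ± 1.21 in wild-type FoB (2.42 ± 0.23, adjusted p = 2.1e-10). Cr2 had 5 of 20 lower. In the knockout cell types 27 of the 97 regions of other tetraspanins, 20 of the 54 of the ADAM10 group and 43 of the 188 of the partners were higher, and 7, 4 and 25 were lower, beside 23.2% and 9.47% of all tested regions. Between genotypes limma called 0 regions of these lists in either cell type, and an unadjusted p under 0.05 was reached by 14, 5 and 18 of them in MZB and 6, 4 and 18 in FoB.

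The Cd9 region at the far end of the gene was compared with the regions of all other genes for likeness over the 12 libraries. The 5 genes with the highest Pearson correlation were Ackr3 (0.996), Ppl, Mettl25, Kirrel3 and Dtx1 (each 0.993). The points share the 4 groups, the region set and the scaling, so a region that differs between the cell types in both genotypes scores high. The Ackr3 region stood at 20.1 ± 2.01 and 18.9 ± 1.73 rppm in wild-type and knockout MZB and at 3.42 ± 0.903 and 3.29 ± 0.548 in FoB. Dtx1, a Notch target gene, stood at 33.2 ± 4.0 and 31.0 ± 2.97 rppm in MZB and 4.41 ± 1.16 and 5.22 ± 1.03 in FoB.

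Markers of other cells that bear Cd9 or could pass the gates were measured in the same fit, where 24.2% of all tested regions were higher and 11.4% lower in wild-type MZB. Among regions of B-1 genes 11 of 36 were higher and 4 lower in wild-type MZB, with sums of 316.3 to 340.3 rppm in MZB and 290.2 to 292.7 in FoB. Among regions of plasma cell genes 17 of 61 were higher and 11 lower, with sums of 678.9 to 713.3 and 724.7 to 772.0 rppm. Platelet and megakaryocyte genes had 1 of 4 regions higher, with sums of 17.7 to 20.5 and 12.9 to 16.4 rppm, and Gp9 had no region. Myeloid genes had 10 of 30 regions higher and 3 lower (232.6 to 243.2 and 213.0 to 218.2 rppm), and dendritic cell genes 16 of 39 higher and 4 lower (415.6 to 424.2 and 394.8 to 406.7 rppm). T cell genes had 2 of 15 higher and 1 lower (102.0 to 104.7 and 85.7 to 101.0 rppm), with no region at Cd4 or Cd8a, and NK cell genes 4 of 16 higher and 5 lower (297.7 to 306.3 and 342.5 to 383.4 rppm). The part of such cells in the Cd9 difference was not tested. In bulk libraries a change in the share of cells with an open region and a change in openness per cell cannot be told apart.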

How the data were processed

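ATAC-seq libraries of 12 samples (3 in each of 4 groups, grouped by the cell type and genotype labels) were analysed. The authors deposited a table of 94161 regions in RPM over the listed regions (rppm). The submitters' processing notes name Bowtie 1.1.1, MACS2 and the build mm10. The handling of Tn5 offsets, duplicates and overlapping peaks, and the base of the coordinates, which stand as deposited, were not given in the sources used here. All values (100.0%) were whole multiples of a library's step within 0.01, so whole reads were recovered; totals ran from 3169966 to 10375328.

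Regions were assigned to the overlapping or nearest of 21900 protein-coding RefSeq genes (GRCm38.p6), and 94069 received a gene. Promoter windows run from 250 bases before to 50 after a start. limma 3.58.1 (R 4.3.3; eBayes with trend, two-sided) was fitted to log2(rppm + 0.5) with 1 coefficient per group over all libraries and regions with at least 1 rppm in 3 libraries. Adjusted p-values are those of limma except where edgeR or DESeq2 is given. Sums per gene were compared by exact permutation.

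Alternatives were edgeR 4.0.16 (quasi-likelihood, TMM) and DESeq2 1.42.0 on the recovered reads, quantile normalisation, pseudocounts of 0.1 and 2, other filters, the compared groups alone, a replicate block, leaving out each library and, chosen after seeing the data, counting only regions with at least 1 rppm in 3 libraries of each cell type. The scripts were tested on simulated data. Same-numbered libraries of different groups did not deviate together (correlations of deviations -0.093 to 0.134), so numbers were not taken as pairs.

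The members, the lists and the rule for named regions were chosen with earlier results of these data known. Named were, per gene, the region with the highest mean and that with the smallest p between wild-type cell types, the 6 Cd9 regions of smallest p, promoter regions and regions called between genotypes, and, per list and contrast, 2 regions of smallest p. The remaining named regions were chosen after their values were seen. The values of 1 gene counted in the lists are not reported here.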

Additional observations from a re-analysis of the deposited data

How the results depend on the processing

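Across the settings tried, the count of member regions called higher in wild-type MZB stayed between 19 and 27. Of the Cd9 regions 16 to 18 were higher in every setting but 1, chosen after seeing the data, which counts only regions that pass the filter in each cell type and left 11 of 12. The count called lower, 4, became 10 with edgeR and TMM and ranged from 2 to 4 when 1 library was left out; it was 2 without FoB wild-type replicate 1, without FoB wild-type replicate 2 and without MZB wild-type replicate 2. In the knockout, the count called higher in MZB, 27, became 20 with DESeq2, 21 after quantile normalisation and 22 with edgeR and TMM. It ranged from 24 to 27 when 1 library was left out. The count called lower there, 3, became 8 with edgeR and TMM. The 1 region called higher in knockout FoB became 0 with DESeq2, edgeR, the compared groups only, a pseudocount of 2 and quantile normalisation, and ranged from 0 to 1 when 1 library was left out. The 0 called lower in knockout FoB became 1 with a pseudocount of 0.1. The causes were not tested. Among the regions chosen by the rule for named regions, the sign turned 5 times, at regions without a call. Cd63 chr10:128895383-128895830 gave -0.08 with DESeq2, -0.09 with edgeR and -0.14 after quantile normalisation. It gave -0.06 without FoB wild-type replicate 3 (-0.06 to 0.22 over the single libraries left out). Cd81 chr7:143038176-143039000 gave 0.03 after quantile normalisation. Signs also turned at regions outside this rule, whose number is not given here. After quantile normalisation the median wild-type difference moved from 0.27 to -0.02 at Cd82 and from 0.22 to -0.04 at Cd81. With the replicate block, the counts of member regions were the same as without it (27 higher and 4 lower in wild type, 1 higher in knockout FoB). All member regions lay within 50000 bp of their gene, so a limit at that distance changed nothing. Depth limits the lowest regions, where 3 reads are up to 0.9464 rppm.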

Other observations

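The genes beside Cd9 also held regions that were higher in wild-type MZB than in wild-type FoB, a comparison chosen after the values were seen. Plekhg6 had 2 of 2 tested regions higher, with a sum of 17.6 ± 2.82 rppm in MZB and 4.63 ± 0.910 in FoB. Tnfrsf1a, a receptor for tumour necrosis factor, had 1 of 2 higher, with sums of 16.2 ± 0.266 and 3.53 ± 1.03 rppm. Vwf, on the other side, had 6 of 10 higher and 0 lower, with sums of 113.0 ± 8.71 and 82.5 ± 4.76 rppm. Over all tested regions 24.2% were higher and 11.4% lower. Which regions of these neighbours passed the filter only through MZB libraries is not given here. Between genotypes limma called 0 regions of these genes in either cell type; in MZB 1 region of Plekhg6 and 1 of Vwf had an unadjusted p under 0.05.

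At Tspan15, knockout MZB libraries were below wild-type MZB libraries at both named regions without a call: 18.2, 18.3 and 18.0 rppm against 28.9, 27.4 and 23.9 at chr10:62231010-62231607 (-0.54 ± 0.20, adjusted p = 0.207 by limma), and 18.0, 18.6 and 16.8 against 27.5, 25.0 and 23.0 at chr10:62194904-62195490 (-0.49 ± 0.25, adjusted p = 0.39). Such libraries without overlap, knockout lower, occurred at 9.55% of all tested regions. Both regions were named for their small p between the cell types, which in wild type favours high MZB values. The genotype values of the other Tspan15 regions are not given here.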
